A study of Mus musculus with 19 samples.

Results

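The 9 genes followed here are regulators of head and limb mesenchyme, the loose connective tissue of the embryo: the paired-type homeobox factors Prrx1, Prrx2 and Alx1, the basic helix-loop-helix factors Twist1 and Twist2, the forkhead factors Foxc1 and Foxc2, the zinc finger factor Snai2, and the growth factor receptor Pdgfra. They were taken as a named list from 18193 genes that have a microarray probe set naming only that gene, and the list was drawn up with earlier results of these data known. The 9 genes have 19 such probe sets, and each gene is represented by the one with the highest mean over the 19 arrays. All 9 genes were among the 13320 that were bright enough to be tested, and 17 of their 19 probe sets passed the same filter.

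Gene expression was measured in wild-type embryos of the ICR mouse strain, staged with the plug day counted as E0.5. The groups were lens of stages E10.5, E11.5 or E12.5 (3 arrays per stage), whole embryonic body covering E10.5 to E12.5 (4 arrays, the reference for the lens), tooth germ at E13.5 (3 arrays) and whole body covering E11.5 to E13.5 (3 arrays, the reference for the tooth germ). All groups are untreated and carry no engineered allele according to the labels. The stated purpose was to find genes enriched in lens or tooth by comparison with the body, so the lens and the tooth germ each have their own body series.

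Mesenchyme of the head comes largely from the neural crest, whose cells leave the neural tube by an epithelial-to-mesenchymal transition in which Snai2 and the Twist factors act, while limb and trunk mesenchyme comes from mesoderm. Prrx1, Prrx2 and Alx1 pattern the limb and facial skeleton, Foxc1 and Foxc2 act in the mesenchyme around the eye, in vessels and in the skeleton, and Pdgfra carries signals from platelet-derived growth factors to mesenchyme cells. The lens is an epithelium that forms from surface ectoderm and is surrounded by such mesenchyme, and its own epithelial cells are known to carry Pdgfra. The tooth germ combines oral epithelium with neural crest mesenchyme.

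Levels are given as log2 signal, and a difference of 1 on this scale is a doubling of signal. The signal of 27 control probe sets for bacterial genes, which have no target in mouse RNA, had a 95th percentile of 4.71, and a gene at or under this level is described as at the no-target level. The median linear signal of an array lay between 42.5 and 46.5, and arrays of one group correlated at 0.964 to 0.995. Tissue markers followed the tissue labels: all 8 lens markers were higher in lens than in body at each stage, with Cryaa, the alpha-A crystallin, higher by 9.37 at E12.5, and in tooth germ all 7 measured dental mesenchyme factors and 7 of 8 epithelium markers were higher than in body. The labels do not say whether arrays of one group come from separate litters or pools, so a p-value covers no more than the spread among arrays, whose number limits the precision. In bulk tissue, fewer cells of a type and less RNA per cell cannot be told apart.

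One lens array stood apart within its group. Cryaa read 12.47, 12.55 and 14.15 on E10.5 lens replicates 1, 2 and 3, against 13.91 to 14.33 at E11.5, so replicate 3 was at the E11.5 level of this lens marker. Other genes that differ between these stages were mixed on it. Epcam read 9.92 on replicate 3 against 6.93 to 7.24 at E11.5, Dsp 9.38 against 6.09 to 6.29, and Prox1 9.42 against 9.94 to 10.24. Msx1 read 5.81, 5.79 and 6.95 on replicates 1, 2 and 3, against 6.87 to 7.42 at E11.5, so here replicate 3 was within the E11.5 range. Control probe sets for spiked bacterial and phage genes also split the lens-series arrays into a high set (E10.5 replicates 1 and 2, E11.5 replicate 1, E12.5 replicate 1, body replicates 2 and 3) and a low set (the other 7 arrays). In the tooth series the same controls put all 3 tooth germ arrays in the high set and all 3 body arrays in the low set, so there the control set and the tissue cannot be told apart.

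The promoters of 3 genes whose lens level moved in the same direction between E11.5 and E12.5 are shown because each holds 1 CCAAT box, a short motif bound by the NF-Y factor, within the 250 bases before the start of the gene. The sequences are RefSeq's on build GRCm38.p6 and run 5′ to 3′ on the plus strand, the coding strand of all 3 genes. Capitals mark the CCAAT box, which reads ATTGG in the Foxc1 promoter because it lies on the other strand. The Twist1 sequence covers chr12:33957421-33957670, the Twist2 sequence chr1:91801211-91801460 and the Foxc1 sequence chr13:31806396-31806645.
Twist1: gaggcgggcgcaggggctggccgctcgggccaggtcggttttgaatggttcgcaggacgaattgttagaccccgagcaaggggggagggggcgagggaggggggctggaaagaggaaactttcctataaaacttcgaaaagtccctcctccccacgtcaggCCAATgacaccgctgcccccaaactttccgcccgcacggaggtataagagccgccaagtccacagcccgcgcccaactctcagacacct
Twist2: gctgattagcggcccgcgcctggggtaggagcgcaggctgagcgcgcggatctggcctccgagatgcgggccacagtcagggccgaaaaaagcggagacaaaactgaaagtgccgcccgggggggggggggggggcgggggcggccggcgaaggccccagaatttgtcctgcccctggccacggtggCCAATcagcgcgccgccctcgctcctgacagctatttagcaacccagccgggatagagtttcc
Foxc1: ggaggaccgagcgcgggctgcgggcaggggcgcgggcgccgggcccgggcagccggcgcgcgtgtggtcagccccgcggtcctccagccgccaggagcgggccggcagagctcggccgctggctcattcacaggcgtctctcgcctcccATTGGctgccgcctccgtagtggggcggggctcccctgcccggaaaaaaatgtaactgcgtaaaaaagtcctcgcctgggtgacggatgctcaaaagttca

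The box starts 89 bases before the gene start in Twist1, 63 in Twist2 and 101 in Foxc1. G and C made up 62.4% of the Twist1 sequence, 68.8% of the Twist2 sequence and 70.8% of the Foxc1 sequence. Of 32851 promoter windows of the same length, 33.8% hold CCAAT on either strand, so a box in each is a description of these windows only. The motif CANNTG, the E-box letters that Twist and Snai factors bind, stands in 66.2% of all windows and in none of these 3. The letters TATAAA, or TTTATA on the other strand, stand in 12.4% of all windows and once in the Twist1 sequence, 126 bases before the start. A promoter entry was matched for 6 of the 9 genes, and Foxc2, Alx1 and Snai2 are named only. Prrx1, Prrx2 and Pdgfra have an entry but no CCAAT box in this window, and Prrx1 was also called lower from E11.5 to E12.5.

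Against whole body, most of these regulators were lower in the lens at every stage, while Foxc1 was called lower at E12.5 alone and Pdgfra at no stage. At E10.5, 7 of the 9 genes were called lower (limma, adjusted p under 0.05) and 1 was called higher, where 19.1% of all tested genes were called lower and 13.5% higher. At E11.5 the counts were again 7 lower and 1 higher, against 22.3% of all genes lower and 14.7% higher. At E12.5, 8 were lower and none higher, against 26.7% and 16.6%. Lens arrays lay wholly below the body arrays for 6, 7 and 8 of the 9 genes at the 3 stages, where this held for 22.7%, 22.9% and 29.5% of all genes. They lay wholly above for 1, 1 and 0 genes, where this held for 17.7%, 15.4% and 19.6%. One group of 4 body arrays serves all 3 comparisons, which are therefore not independent.

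Prrx1 (chromosome 1, 163245119 to 163315145), a homeobox factor of limb bud and facial mesenchyme, had the widest gap between lens and body of the 9. Its level was 6.0, 5.39 and 6.76 in E10.5 lens, 6.57, 6.77 and 6.88 in E11.5 lens, 5.77, 6.0 and 5.47 in E12.5 lens, and 10.45, 10.37, 10.53 and 10.46 in body. Every lens array was below every body array by more than 3 log2 units. In order of stage the differences were −4.40, −3.71 and −4.70 (SE of the limma fit 0.21 each), which is 21.1-fold, 13.1-fold and 26.1-fold lower, with adjusted p = 4.4e-12, 4.8e-11 and 1.5e-12. The 4 other Prrx1 probe sets that passed the filter differed from body in the same direction at all 3 stages, by −2.02 to −4.48, where 16.7%, 19% and 23.1% of all tested probe sets were called lower at the 3 stages. The set ranked 2 by mean level, which gave −4.48 at E12.5, had means under the no-target level in E10.5 (4.42) and E12.5 lens (4.22). Its differences there have no measured lower end. The 1 set that did not pass stayed at the no-target level on all 19 arrays.

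Prrx2 (chromosome 2, 30845064 to 30881251), a close relative that acts with Prrx1 in limb and jaw, showed a narrower gap. It read 7.36, 7.25 and 7.02 in E10.5 lens, 7.50, 7.89 and 7.14 in E11.5 lens, 7.41, 7.57 and 6.89 in E12.5 lens, and 8.33, 8.07, 8.81 and 8.71 in body. The lens and body groups did not overlap at any stage. The differences were −1.27, −0.97 and −1.19 (SE 0.23 each; limma adjusted p = 0.000227, 0.0026 and 0.000319).

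Alx1 (chromosome 10, 103007847 to 103029549), a factor of the frontonasal mesenchyme, had lens means under the no-target level. It read 4.65, 4.70 and 4.63 in E10.5 lens, 4.49, 4.78 and 4.63 in E11.5 lens and 4.76, 3.79 and 3.77 in E12.5 lens, against 6.79, 6.95, 6.29 and 6.67 in body. Since the lens means lie under 4.71, only a bound can be given: with each lens array set to at least that level, Alx1 was at least 3.91-fold, 3.85-fold and 3.86-fold lower at the 3 stages (limma adjusted p of the unbounded fit = 1.93e-07, 1.66e-07 and 5.15e-09). The second Alx1 probe set failed the filter and was not tested.

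Twist1 (chromosome 12, 33957671 to 33959831), a factor of cranial mesenchyme and of the skull sutures, read 6.65, 6.18 and 7.48 in E10.5 lens, 7.75, 7.04 and 7.24 in E11.5 lens, 5.27, 6.02 and 5.0 in E12.5 lens, and 9.11, 9.20, 9.24 and 9.47 in body. All lens arrays lay below all body arrays. The differences were −2.48, −1.91 and −3.83 (SE 0.26 each), or 5.59-fold, 3.76-fold and 14.2-fold lower, with limma adjusted p = 1.97e-07, 6.35e-06 and 3.56e-10.

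Twist2 (chromosome 1, 91801461 to 91848034), which is known from dermis and facial mesenchyme, read 6.67, 6.53 and 7.38 in E10.5 lens, 7.19, 6.58 and 6.5 in E11.5 lens, 6.06, 6.03 and 5.61 in E12.5 lens, and 9.56, 9.94, 9.77 and 9.53 in body. Again no lens array reached the body arrays. The differences were −2.84, −2.95 and −3.80 (SE 0.23 each; limma adjusted p = 5.05e-09, 3.08e-09 and 6.08e-11).

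Snai2 (chromosome 16, 14705852 to 14709395), a repressor of epithelial genes in migrating neural crest, was lower at each later lens stage. It read 8.71, 8.97 and 8.43 in E10.5 lens, 7.39, 7.48 and 8.04 in E11.5 lens, 6.97, 7.05 and 6.71 in E12.5 lens, and 10.61, 11.10, 10.45 and 10.18 in body. The 3 lens stages did not overlap with each other or with body. The differences from body were −1.88, −2.95 and −3.68 (SE 0.19 each), or 3.69-fold, 7.73-fold and 12.8-fold lower, with limma adjusted p = 1.83e-07, 3.29e-10 and 9.71e-12. The second Snai2 probe set gave −1.46, −2.06 and −2.49, also called at each stage.

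Foxc1 (chromosome 13, 31806646 to 31810635), a forkhead factor needed in the mesenchyme of the front of the eye, was not called different from body in the early lens. It read 9.25, 8.89 and 9.48 in E10.5 lens, 9.02, 8.88 and 8.96 in E11.5 lens, 7.78, 8.22 and 7.72 in E12.5 lens, and 9.21, 8.88, 9.0 and 9.44 in body. Lens and body overlapped at E10.5 and E11.5 and were apart at E12.5. The differences were 0.07 (limma adjusted p = 0.787) and −0.18 (adjusted p = 0.422) at E10.5 and E11.5, and −1.23 ± 0.17 (adjusted p = 5.07e-06), or 2.34-fold lower, at E12.5. Its second probe set gave 0.07, −0.42 and −1.57, with a call at E12.5 and no call at the earlier stages.

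Foxc2 (chromosome 8, 121116171 to 121118895), which acts with Foxc1 in vessels and skeleton, read 6.48, 6.49 and 7.87 in E10.5 lens, 6.92, 6.82 and 6.59 in E11.5 lens, 5.36, 5.69 and 5.27 in E12.5 lens, and 7.80, 7.92, 8.35 and 8.55 in body. At E10.5 replicate 3 lay within the body range, and the other lens arrays were all below it. The differences were −1.21, −1.38 and −2.71 (SE 0.29 each; limma adjusted p = 0.00269, 0.000786 and 2.35e-07). Without E10.5 replicate 3 the E10.5 difference was −1.67 (adjusted p = 2.24e-05), and that array alone set against the body arrays of its control set gave −0.30.

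Pdgfra (chromosome 5, 75151322 to 75198206), a receptor of platelet-derived growth factors A and C, was the only one of the 9 called higher in lens than in body. It read 11.63, 11.82 and 11.70 in E10.5 lens, 11.64, 11.25 and 11.65 in E11.5 lens, 11.03, 10.99 and 11.05 in E12.5 lens, and 11.07, 10.84, 10.90 and 11.10 in body. The E10.5 and E11.5 lens arrays were all above the body arrays, and at E12.5 the groups overlapped. The differences were 0.74 ± 0.16 (limma adjusted p = 0.00105), 0.54 ± 0.16 (adjusted p = 0.0116) and 0.05 ± 0.16 (adjusted p = 0.835), or 1.67-fold, 1.45-fold and 1.03-fold. The E11.5 call was lost without E11.5 replicate 3 (0.47, adjusted p = 0.0546) and within the low control set (0.36, adjusted p = 0.103).

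The other 2 Pdgfra probe sets were also higher at E10.5, by 1.15 (limma adjusted p = 0.0113) and 1.67 (adjusted p = 0.000206), where 14.4%, 15.3% and 17.3% of all 23913 tested probe sets were called higher at the 3 stages. At E11.5 they gave 0.84 (adjusted p = 0.0557) and 1.20 (adjusted p = 0.00393). At E12.5 they disagreed on the call, with 0.15 (adjusted p = 0.755) and 1.05 (adjusted p = 0.00833). The plot of levels by array shows the 9 genes side by side.

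**Figure D1:**
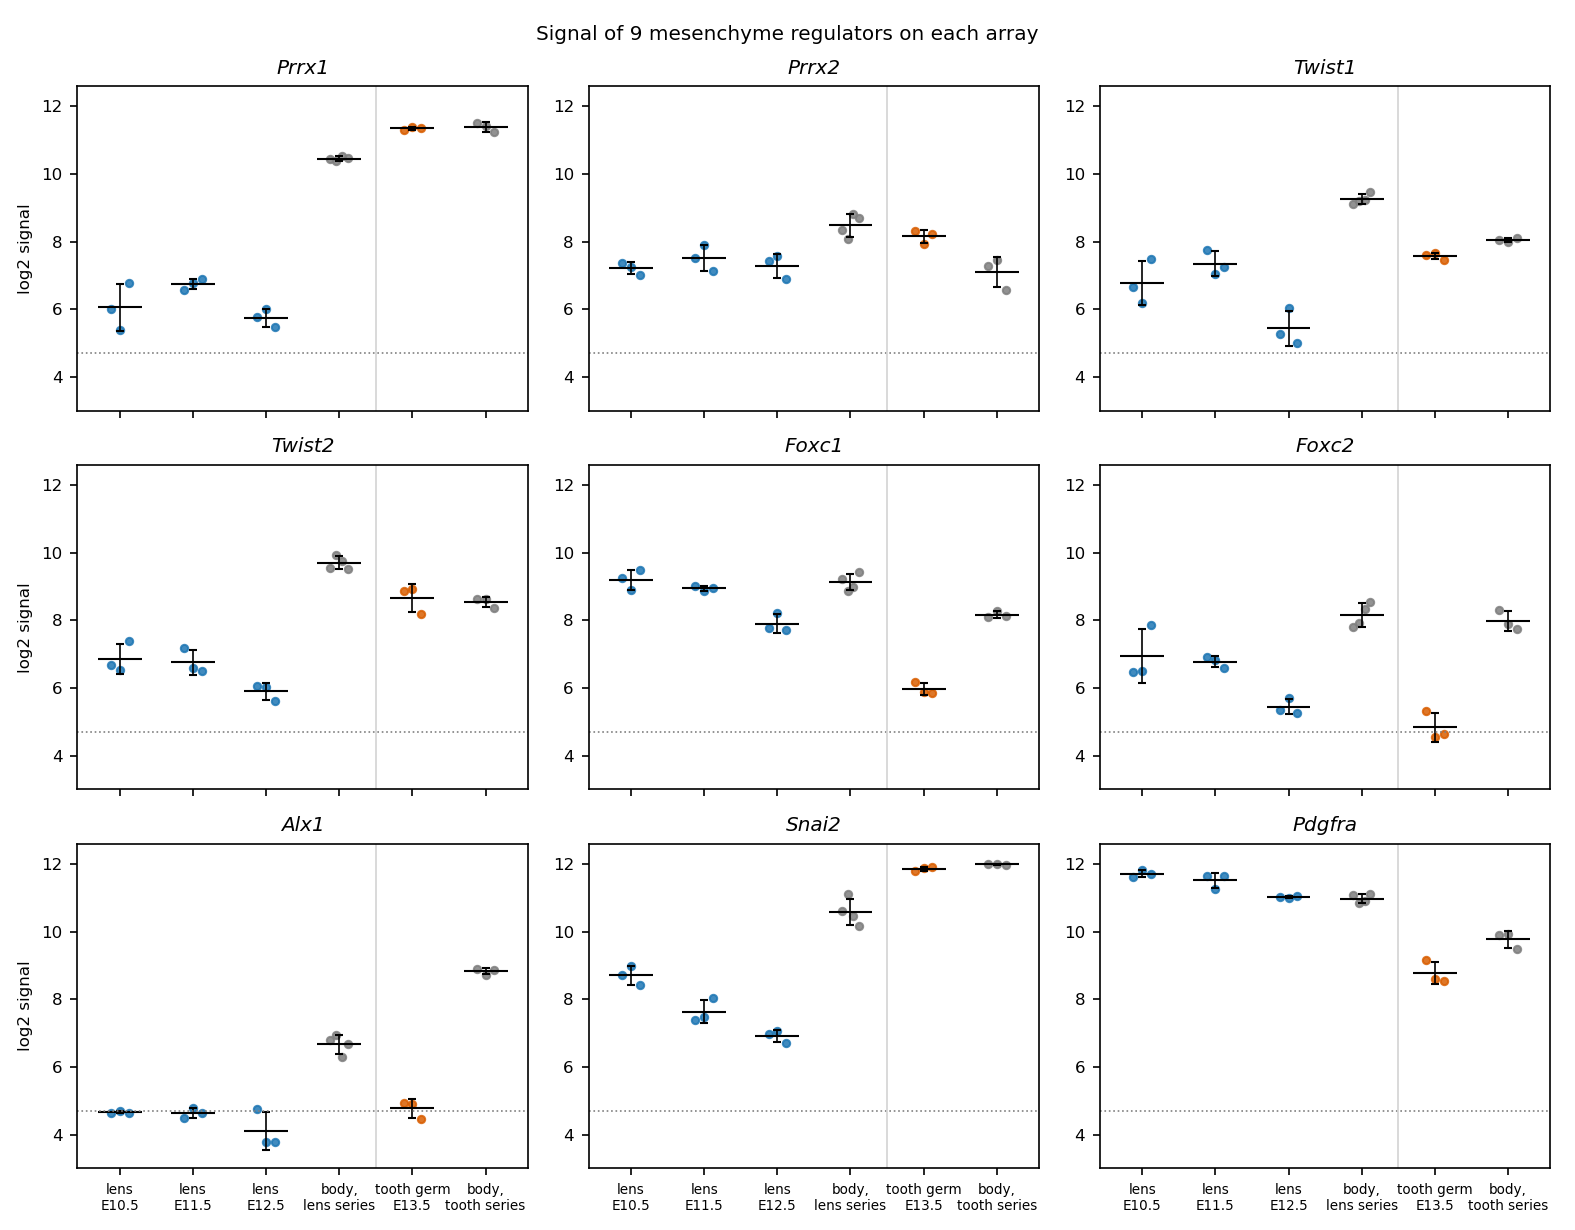
Log2 signal (vertical axis) of the main probe set of each gene on all 19 arrays, by group (horizontal axis). Points are arrays, the long line is the group mean, the bar is ± 1 SD, and the dotted line is the no-target level of 4.71. Lens arrays lie below lens-series body arrays for Prrx1, Prrx2, Twist1, Twist2, Alx1 and Snai2, while the E10.5 lens arrays of Foxc1 overlap the body arrays and those of Pdgfra lie above them.

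Between lens stages, the change lay mostly in the later step. From E10.5 to E11.5, 1 of the 9 genes was called lower and none higher, where 2.74% of all tested genes were called lower and 1.52% higher. From E11.5 to E12.5, 6 were called lower and none higher, where 3.45% of all genes were called lower and 3.02% higher. The later stage lay wholly below the earlier one for 1 and 7 of the 9 genes in the 2 steps, where this held for 10.3% and 11.2% of all genes, and wholly above for none, where this held for 7.18% and 7.90%. These steps compare lens with lens and do not use the body arrays.

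Snai2 was the gene called in the first step, at −1.07 ± 0.21 (limma adjusted p = 0.00448), although its second probe set gave −0.60 (adjusted p = 0.2). Within the high control set Snai2 differed by −1.45 and within the low set by −0.67, each with only 1 array on one side of the comparison, and the call was lost when the fit used the 6 arrays compared (adjusted p = 0.122). When E10.5 replicate 3 was left out, Prrx1 and Twist1 were called higher at E11.5 than at E10.5, by 1.04 (adjusted p = 0.00189) and 0.93 (adjusted p = 0.0346). With that array they gave 0.69 (adjusted p = 0.107) and 0.57 (adjusted p = 0.301).

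In the second step Twist1 had the largest difference of the 9, at −1.92 ± 0.27 (limma adjusted p = 0.000246), or 3.77-fold lower at E12.5. Foxc2 differed by −1.33 ± 0.31 (adjusted p = 0.0113), Foxc1 by −1.04 ± 0.18 (adjusted p = 0.00105) and Prrx1 by −0.99 ± 0.23 (adjusted p = 0.0114). Twist2 differed by −0.86 ± 0.24 (adjusted p = 0.0379) and Snai2 by −0.73 ± 0.21 (adjusted p = 0.0387). The second Foxc1 probe set was also called (−1.16, adjusted p = 0.00298), the second Snai2 set was not (−0.43, adjusted p = 0.418), and of the 4 other Prrx1 sets 1 was called (−0.79, adjusted p = 0.0404) and 3 were not (−0.65, −0.50 and −0.50). The Prrx1 set at −0.65 was under the no-target level on every E12.5 array, so the size of that difference is not measured. For the main probe set of all 6 genes, every E12.5 array was below every E11.5 array. Pdgfra was also below on every array (−0.49, adjusted p = 0.104) without a call, and Prrx2 (−0.22) and Alx1 (−0.53) overlapped between the stages.

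The calls of this step were not equally firm. The labels do not say what the replicate numbers mark. The differences above come from a fit without a block. In alternative fits the numbers were taken as pairing the E11.5 and E12.5 lens arrays, because same-numbered arrays deviated together in these data. At both stages replicate 1 is in the high control set and replicates 2 and 3 are in the low set, so number and control set are mixed. With the replicate number as a block over all groups Twist2 had a limma adjusted p of 0.054. With the block limited to these 6 arrays, a fit chosen after seeing the data, all 6 calls held. A fit to these 6 arrays with no block called Twist1, Foxc1 and Foxc2, and not Prrx1 (adjusted p = 0.0579), Twist2 (0.149) or Snai2 (0.174). Without E12.5 replicate 3 only Twist1 and Foxc1 were called, and Foxc2 gave −1.25 (adjusted p = 0.0621). The Twist2 call was also lost without E11.5 replicate 1 or without E12.5 replicate 1 or 2 (adjusted p = 0.156, 0.0559 and 0.0675). The Snai2 call was lost without replicate 3 of E11.5 and without replicate 1 or 2 of E12.5 (adjusted p = 0.187, 0.0729 and 0.0612), and the Prrx1 call without E11.5 replicate 3 (adjusted p = 0.052). Twist1 and Foxc1 passed with each array left out. Within the high control set, which has 1 array of each stage, the differences were −2.49 for Twist1 and −1.23 for Foxc1, and within the low set, with 2 arrays of each stage, they were −1.63 and −0.95.

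Markers of other tissues also differed between these stages. The summed linear signal of 8 surface epithelium markers was 6317.9 to 8397.4 in E10.5 lens, 2367.4 to 2725.6 in E11.5 lens and 1594.7 to 1749.1 in E12.5 lens, against 1915 to 2260.4 in body, with Trp63 at the no-target level from E11.5 and Dsp at E12.5. The sum of 4 neural retina markers was 1701.6 to 2092.5, 732.4 to 923.8 and 365.6 to 473 in the 3 lens stages, against 1074.6 to 1637.5 in body, and Sox2, which lens precursors also express, made up 56.3% to 90.8% of it in lens. Both sums were thus lower at each later stage. Without Sox2 the neural retina sum was 189 to 211.9, 226.6 to 346.8 and 140.4 to 184.6 in the 3 lens stages. It was then highest at E11.5, and was 388.8 to 476.7 in body. The sum of 6 cartilage markers was 1411.3 to 1766, 1973.1 to 2225.7 and 1257.3 to 1400.6, against 3439.9 to 5104.4 in body, with Matn1 at the no-target level in lens. Pigment cell markers summed to 408.4 to 479.3, 846.4 to 1033.3 and 481.4 to 491.6, against 390.2 to 449.3 in body, with the means of Tyr and Tyrp1 at the no-target level in all 4 groups. Among the lens stages the sums of these 2 lists were highest at E11.5. Col9a1 made up 50.1% to 83.2% of the cartilage sum in lens. Without Col9a1 the cartilage sum was 487.7 to 782.2, 374.3 to 716 and 283.5 to 309.7 in the 3 lens stages, and was not highest at E11.5. In body it was then 1573.8 to 2994.9.

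The sum of 14 mesenchyme matrix genes was higher at each later stage, at 8996.8 to 10517.4, 15911.8 to 17665.7 and 19012 to 21151 in lens, against 32366.2 to 36914 in body. Vim, an intermediate filament gene that lens cells also express, made up 61.5% to 76% of it in lens. Without Vim it was 2155.9 to 2962.5, 5135.7 to 6599.5 and 6185.5 to 8144.7, against 24666.3 to 28206.6 in body. Of the 9 regulators, Pdgfra made up 63.6% to 77.6% of the summed signal in lens. The other 8 summed to 1448.5 to 1901.5, 1361.9 to 1466.9 and 611.1 to 881.6 in the 3 lens stages, against 5513.7 to 6197.8 in body. The part of these cells in the results was not tested.

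In tooth germ the pattern was split. Against its own body series, 1 of the 9 genes was called higher and 4 lower, where 16.6% of all tested genes were called higher and 25.3% lower. Prrx2 was higher, Alx1, Foxc1, Foxc2 and Pdgfra were lower, and Prrx1, Twist1, Twist2 and Snai2 were not called. Tooth germ arrays lay wholly above the body arrays for 1 gene and wholly below for 6, where this held for 24.4% and 31.7% of all genes.

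Prrx2 read 8.32, 7.94 and 8.21 in tooth germ, against 7.27, 7.44 and 6.58 in body, with no overlap. It was higher by 1.06 ± 0.25 (limma adjusted p = 0.00192), or 2.09-fold. Prrx1 read 11.31, 11.40 and 11.36 in tooth germ, against 11.52, 11.42 and 11.23 in body, and the groups overlapped (−0.04, adjusted p = 0.916). Its other probe sets disagreed in direction: the set ranked 3 by mean level was called higher at 0.96 (adjusted p = 0.000601) and the set ranked 5 lower at −0.99 (adjusted p = 0.00128), where 15.4% of all tested probe sets were called higher and 23.2% lower. No direction is therefore given for Prrx1 in tooth germ.

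Twist2 read 8.88, 8.93 and 8.18 in tooth germ, against 8.62, 8.64 and 8.38 in body (0.12, limma adjusted p = 0.716). Snai2 read 11.80, 11.87 and 11.90, against 12, 12 and 11.96 in body (−0.13, adjusted p = 0.63). Twist1 read 7.60, 7.65 and 7.46, against 8.04, 7.99 and 8.09 in body. The Twist1 groups did not overlap, and the difference of −0.47 was not called over all 19 arrays (adjusted p = 0.178) but was called when the fit used the 6 arrays compared (adjusted p = 0.0141).

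Alx1 showed the widest gap in tooth germ, with 4.94, 4.91 and 4.46, against 8.89, 8.72 and 8.87 in body. With the 1 tooth germ array under the no-target level set to it, Alx1 was at least 15.8-fold lower (limma adjusted p of the unbounded fit = 5.92e-11). The second Alx1 probe set, which was not tested, gave −0.32, with a tooth-series body mean of 4.60 under the no-target level. The Alx1 bound therefore rests on the main probe set alone. Foxc2 read 5.33, 4.54 and 4.63, against 8.31, 7.90 and 7.74 in body, and with the 2 tooth germ arrays under the no-target level set to it was at least 8.4-fold lower (adjusted p of the unbounded fit = 1.56e-07). Foxc1 read 6.17, 5.89 and 5.86, against 8.09, 8.28 and 8.12 in body (−2.19 ± 0.18, adjusted p = 1.3e-08). Pdgfra read 9.15, 8.61 and 8.55, against 9.89, 9.94 and 9.49 in body (−1.01 ± 0.17, adjusted p = 9.36e-05). In all 4 genes every tooth germ array lay below every body array, and the second Foxc1 probe set (−1.82) and 1 of the other Pdgfra probe sets (−1.08, adjusted p = 0.0211) were called lower as well, both with every tooth germ array under the no-target level, so that these differences have no measured lower end. The third Pdgfra set gave −0.79 (adjusted p = 0.0577).

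The lens and tooth results were compared by testing the difference of E12.5 lens from its body minus the difference of tooth germ from its body. Here 5 genes were called lower and 3 higher, where 20.4% of all tested genes were called lower and 19.2% higher. Prrx1 gave −4.67 ± 0.31, Twist2 −3.92 ± 0.33, Snai2 −3.55 ± 0.28, Twist1 −3.36 ± 0.37 and Prrx2 −2.25 ± 0.34 (limma adjusted p from 1.32e-09 to 3.14e-05), so these 5 were lower relative to body in lens than in tooth germ. Alx1 gave 1.49 ± 0.30 (adjusted p = 0.00062), Pdgfra 1.05 ± 0.23 (adjusted p = 0.00124) and Foxc1 0.97 ± 0.24 (adjusted p = 0.00355), and Foxc2 was not called (0.44, adjusted p = 0.44). The Foxc1 call did not hold for its second probe set (0.24, adjusted p = 0.562). Of the other Pdgfra probe sets, 1 was not called (1.23, adjusted p = 0.0534), with every tooth germ array under the no-target level. The third Pdgfra set was called (1.845, adjusted p = 0.00267). The Alx1 value rests on lens and tooth germ levels near the no-target level and on bodies that differ, and it was 0.31 (adjusted p = 0.193) with the mean of both Alx1 probe sets.

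**Figure D2:**
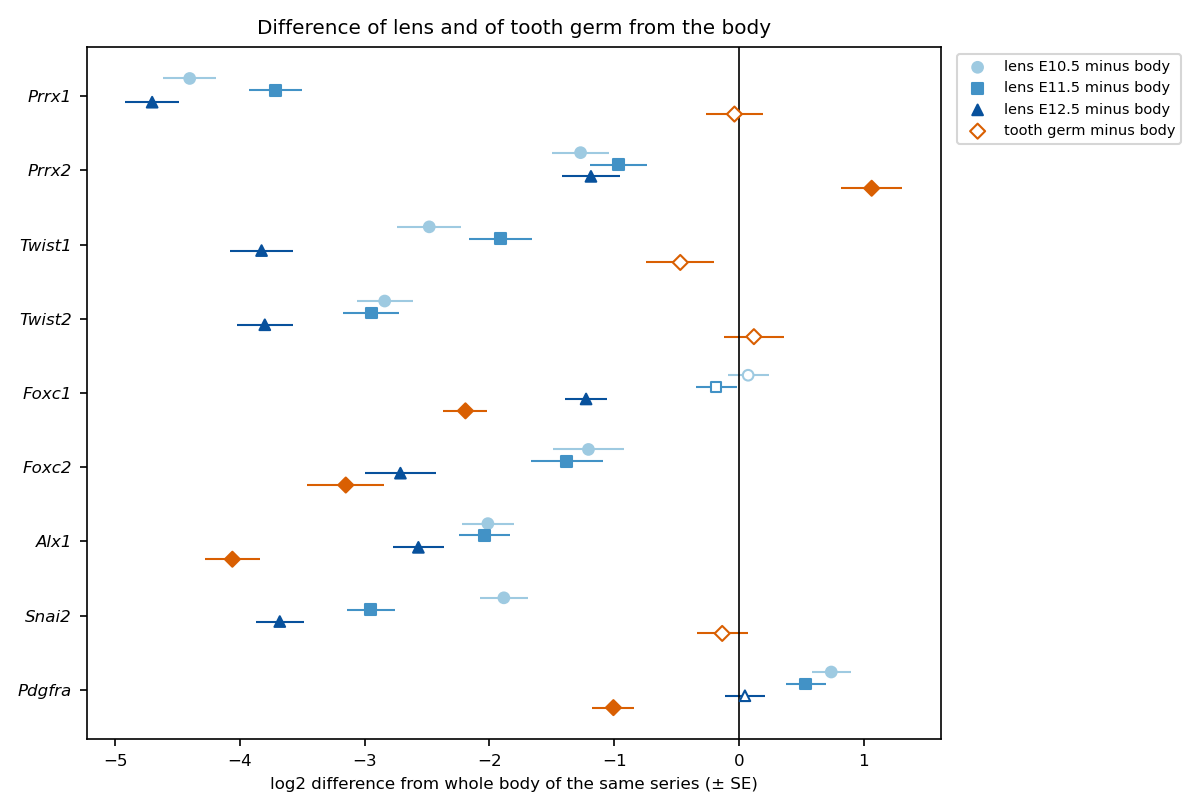
Log2 difference from the matching whole body (horizontal axis) of each gene in lens at 3 stages and in tooth germ, with bars of ± 1 SE of the limma fit. Filled symbols passed the test and open symbols did not. Prrx1, Twist1, Twist2 and Snai2 lie far to the left in lens and near 0 in tooth germ, while Foxc1, Foxc2, Alx1 and Pdgfra lie further to the left in tooth germ than in E10.5 lens.

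The bodies themselves differed for most of these genes. In the tooth-series body against the lens-series body, 3 of the 9 were called higher and 5 lower, where 31.8% of all tested genes were called higher and 31.8% lower. Stage, series and processing cannot be told apart in this comparison. Alx1 was higher by 2.16 (limma adjusted p = 4.03e-08), Snai2 by 1.40 (adjusted p = 3.88e-06) and Prrx1 by 0.94 (adjusted p = 0.000792), and Prrx2, Twist1, Pdgfra, Twist2 and Foxc1 were lower, by −1.38 to −0.97. The second Snai2 probe set was not called (−0.07, adjusted p = 0.782). The second Alx1 probe set, which was not tested, went the other way (−0.76).

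Probe sets of one gene disagreed here by more than their error. The 3 Pdgfra probe sets gave −1.20, −3.88 and 2.04, all called, where 29.8% of all tested probe sets were called higher and 37.1% lower. The Prrx1 probe sets that passed the filter gave 0.94, 1.85, 0.12, −2.65 and −0.93. Levels of these genes are therefore not compared across the lens and tooth series, and each tissue is read against its own body. The plot of probe sets shows these levels array by array.

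**Figure D3:**
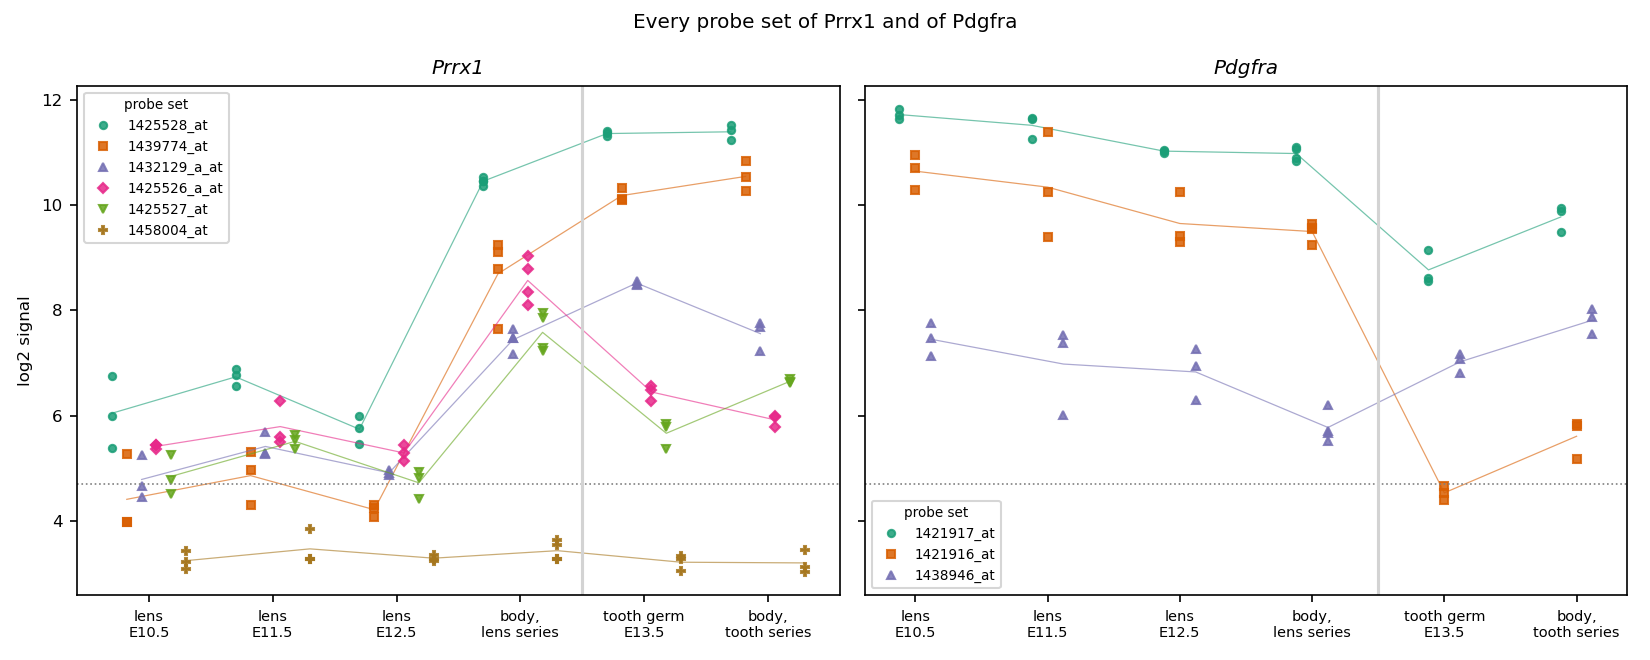
Log2 signal (vertical axis) of all 6 probe sets of Prrx1 and all 3 of Pdgfra, by group (horizontal axis). Points are arrays, lines join the group means of a probe set, and the dotted line is the no-target level of 4.71. The 5 Prrx1 sets that pass the filter are lower in lens than in the lens-series body, and from the lens-series to the tooth-series body the sets of either gene move in both directions.

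Genes that work with these regulators were followed as lists chosen with earlier results known. Of the 5 other genes of the platelet-derived growth factor group, 3 were lower in lens than in body at each of the 3 stages and none was higher, where 19.1%, 22.3% and 26.7% of all tested genes were lower. Pdgfd is not counted, being under the no-target level in lens and in its body series (median of the 5 −0.55, −0.71 and −0.75, against −0.01, −0.03 and −0.05 over all tested genes). Pdgfc, a ligand of Pdgfra, gave −1.59, −3.49 and −3.90, and it fell between E10.5 and E11.5 lens (−1.90, limma adjusted p = 4.8e-07). Pdgfa, also a ligand of Pdgfra, gave −0.55, −0.71 and −0.75, and the receptor Pdgfrb gave −1.82, −1.08 and −1.26. The ligand gene Pdgfb was not called at any lens stage (−0.18, 0.29 and 0.12). In tooth germ Pdgfa (0.98) and Pdgfrb (0.97) were higher than in body and Pdgfc was lower (−1.03), so receptor and ligands were not called in one direction in either tissue.

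**Figure D4:**
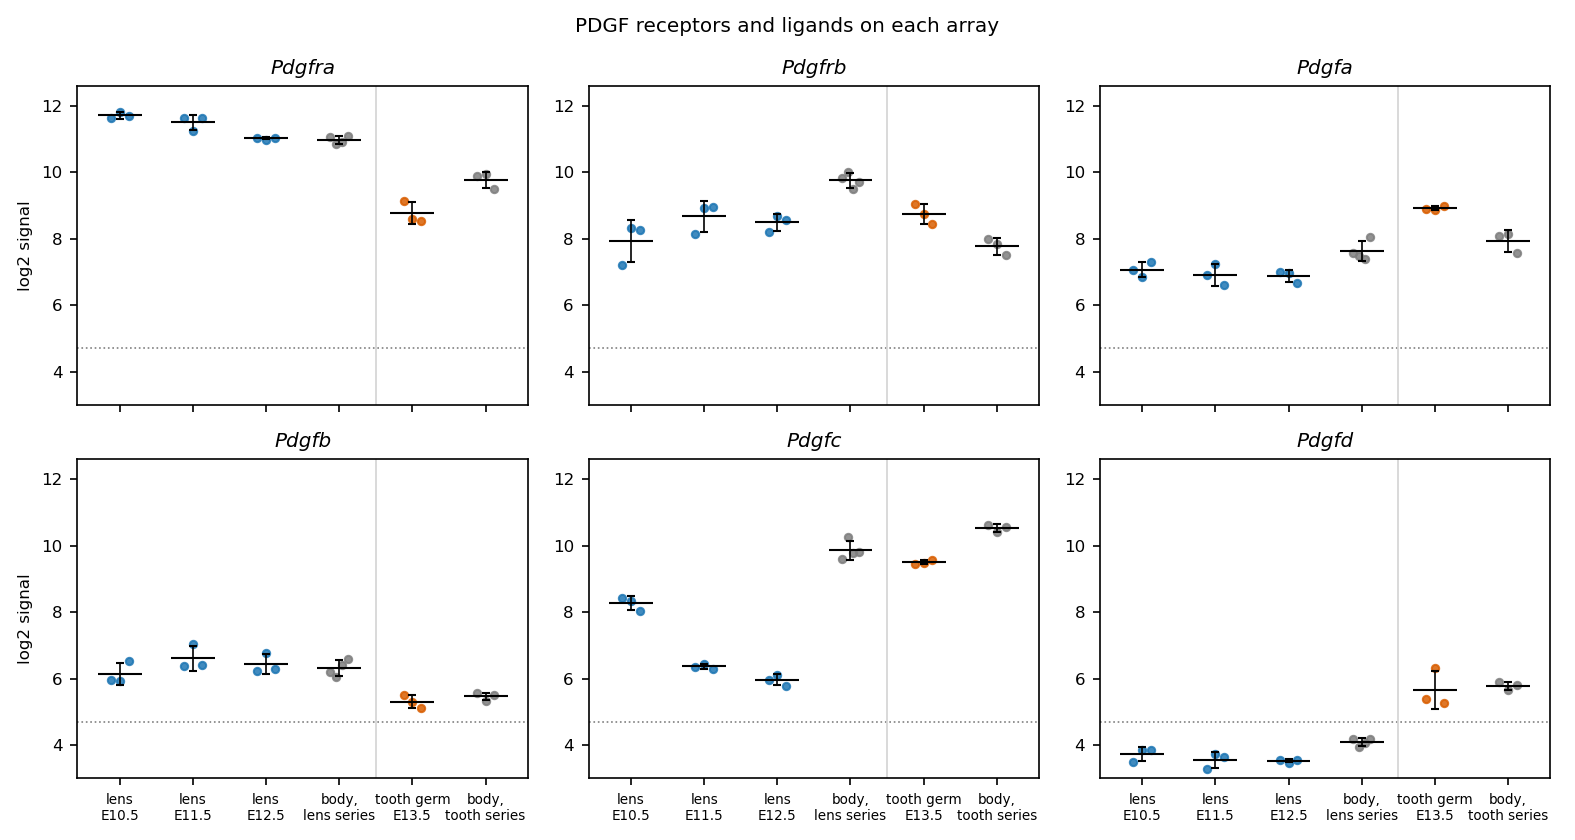
Log2 signal (vertical axis) of Pdgfra, Pdgfrb and the 4 ligand genes on all 19 arrays, by group (horizontal axis), with the group mean and ± 1 SD. The Pdgfc arrays of every lens stage lie below the body arrays, the Pdgfra arrays of E10.5 and E11.5 lens lie above them, and Pdgfd is under the no-target level in the whole lens series.

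Of the E proteins and Id proteins, which pair with or block the Twist factors, 3, 4 and 4 of 7 were lower in lens at the 3 stages. Over all tested genes 19.1%, 22.3% and 26.7% were lower. At each stage 1 of the 7 was higher, where 13.5%, 14.7% and 16.6% of all tested genes were higher, so that 1 of 7 is near the background. Id4, an Id protein, gave −4.19, −3.68 and −4.11, and the E proteins Tcf12 and Tcf4 gave −0.51 to −1.18. The one that was higher was Id3 at E10.5 (0.90) and E11.5 (0.68), and Id2 at E12.5 (0.72). In tooth germ Id3 was higher (1.07) and Tcf4 lower (−0.74) than in body.

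Of 4 other factors of the epithelial-to-mesenchymal transition, Zeb1 and Snai1 were lower in lens than in body at each stage (−1.34 to −1.74), and Zeb2 was higher (1.08, 1.17 and 1.07). Zeb2 was also higher in tooth germ (1.77), where Zeb1 was lower (−1.54). Snai3 was not called in either tissue. Snai2 and Zeb2 thus had opposite signs in lens.

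Limb and body wall factors were lower in lens for 10, 9 and 9 of the 10 tested at the 3 stages, where 19.1%, 22.3% and 26.7% of all tested genes were lower. Their median was −2.40, −2.41 and −2.20 with arrays under the no-target level set to it. By the same bound Shox2, a limb and jaw homeobox factor, was at least 25.1-fold, 24.4-fold and 21.1-fold lower, and Hand2, a limb and jaw arch factor, at least 12-fold lower at each stage. In tooth germ 8 of 10 were lower, where 25.3% of all tested genes were, while Pitx1, a factor of hindlimb and jaw, was higher (1.93). Between lens stages none of the 10 was called by limma. Over all tested genes 2.74% were called lower and 1.52% higher in the first step, and 3.45% and 3.02% in the second. A count of none in 10 is thus near the background. In the 2 steps 4 and 3 of the 10 were at the no-target level at both stages.

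Among other head mesenchyme homeobox and AP-2 factors, 5 were tested. In lens Msx1 (−2.89, −1.86 and −1.60) and Tfap2b (−2.21, −0.50 and −0.66) were lower than in body and Tfap2a was higher (2.57, 1.72 and 1.25). In tooth germ Msx1 (2.51) and Tfap2b (1.57) were higher. Of 6 tested Fox factors of mesenchyme, 3, 5 and 4 were lower in lens at the 3 stages and none was higher. Over all tested genes 19.1%, 22.3% and 26.7% were lower and 13.5%, 14.7% and 16.6% higher. Foxd1 gave −3.67 and −3.00 in E10.5 and E11.5 lens. In E12.5 lens and in tooth germ 2 of 3 Foxd1 arrays were under the no-target level, and with these set to it Foxd1 was at least 14.4-fold and 17.9-fold lower than in body. It also fell between E11.5 and E12.5 lens (limma adjusted p of the unbounded fit = 0.0023), by at least 1.8-fold.

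Of 5 neural crest factors, 3 were lower in lens at each stage, where 19.1%, 22.3% and 26.7% of all tested genes were lower. Sox9 gave −1.95, −2.18 and −2.38. The mesenchyme matrix genes did not follow the regulators between stages. While 11, 10 and 11 of 13 tested were lower in lens than in body, against the same shares of all genes, 5 rose between E10.5 and E11.5 lens and none fell. In that step 1.52% of all tested genes rose and 2.74% fell. Among the 5 were the collagen genes Col1a2 (2.31) and Col3a1 (1.66) and the proteoglycan genes Lum (1.90) and Dcn (1.33). Ogn rose between E11.5 and E12.5 lens (3.23). In tooth germ 8 of 13 were higher than in body, where 16.6% of all tested genes were. They were led by Col6a2 (1.88), Postn (1.87) and Fbn2 (1.87), and Vim was lower (−1.20).

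The genes whose pattern was most like each regulator were taken by Pearson's r of log2 signal over the 19 arrays, as a description without a test, since the arrays share tissue and series and the difference between the series enters it. For Prrx1 they were Bcl11a (0.994), Ddr2 (0.992) and Sertad4 (0.989). For Snai2 they were Fnbp1l (0.992), Rab31 (0.987) and Ror2 (0.985), for Twist2 Adgra2 (0.972), Gpx7 (0.955) and Myl4 (0.953), and for Twist1 Pth1r (0.933), Irx3 (0.933) and Pdzrn3 (0.913). For Alx1 they were Sp8 (0.978), Zfp811 (0.977) and Myf5 (0.977), for Foxc1 Hmgb3 (0.967), Srsf11 (0.964) and Igdcc3 (0.963), for Pdgfra Manf (0.978), Ppat (0.974) and Nolc1 (0.974), for Foxc2 Plscr1 (0.927), Mapk12 (0.918) and Akirin2 (0.918), and for Prrx2 Ptpdc1 (0.874), Tle2 (0.866) and Trio (0.865). Within the 13 lens-series arrays alone the same genes gave 0.991 to 0.994 for Prrx1, 0.973 to 0.985 for Snai2, 0.961 to 0.978 for Twist2, 0.94 to 0.961 for Alx1, 0.937 to 0.96 for Twist1, 0.881 to 0.916 for Foxc2 and 0.847 to 0.889 for Prrx2. They gave less for Pdgfra, at 0.828 to 0.875, and for Foxc1, at 0.767 to 0.918. Among the 9 regulators in these 13 arrays, the pairs most alike were Prrx1 with Twist2 (0.973), Alx1 with Twist2 (0.956) and Twist1 with Foxc2 (0.951), and Pdgfra gave −0.54 with Prrx1 and 0.41 with Foxc1.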

How the data were processed

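The 19 RNA samples were hybridised to Affymetrix mouse expression arrays. The deposited intensity of each probe set comes from RMA, a method that removes background, equalises arrays and combines probes, per the submitters' processing notes, which also list affy 0.7; no other upstream step is given in the sources used here. They are linear (5.4 to 25043.5), so log2 of the deposited intensity was taken, with no further normalization. The platform annotation of 2016 gives 1 gene for 34945 of 45101 probe sets, several for 932 and none for 9160, and 64 are controls. By Entrez ID, 34741 matched RefSeq on GRCm38.p6.

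Genes entered the test if their main probe set was above 5.46, the median over the whole table, on at least 3 arrays. limma 3.58.1 (R 4.3.3) was fitted with 1 mean per group over all 19 arrays, and two-sided p-values were adjusted by Benjamini-Hochberg over the 13320 genes, or over 23913 probe sets where another probe set of a gene is given. Differences carry the SE of the model. The fit was tested on simulated data. No pair of arrays shared over 2.04% of its values exactly.

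Same-numbered arrays of E11.5 and E12.5 lens deviated together (r of 0.405 to 0.641 over genes in 3 pairs). On this ground, taken from these data and not from the labels, the numbers were treated as pairing these arrays in alternative fits only. The reported differences come from the fit with no block. In each other group pair the lowest r of same-numbered arrays was negative. For E11.5 with E10.5 lens r ran from −0.059 to 0.576. The highest was for replicate 1, whose arrays share the high control set. E12.5 replicate 2 with E11.5 replicate 3, which share a control set but not a number, gave 0.354. Alternatives were median centring, an offset of 16, other filters, the mean of all probe sets, fits on the arrays compared, blocks for replicate number and control set, fits within a control set, and leaving out each array. The block on E11.5 and E12.5 lens alone was chosen after seeing the data.

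The 9 genes, the lists and the tests were chosen with earlier results of these data known. Named genes are the 9, up to 4 called members of each list with the largest differences, those that oppose their list, the 3 genes most alike, and lens and tooth checks.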

Additional observations from a re-analysis of the deposited data

Results flagged for a closer look

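Differences between lens stages passed the test for 6 of the 9 genes over all 19 arrays, and only Twist1 and Foxc1 kept the call between E11.5 and E12.5 with each array left out in turn. Over all tested genes 2.74% were called lower from E10.5 to E11.5 and 3.45% from E11.5 to E12.5. From E11.5 to E12.5 the differences were −1.92 for Twist1, −1.33 for Foxc2, −1.04 for Foxc1, −0.99 for Prrx1, −0.86 for Twist2 and −0.73 for Snai2, and from E10.5 to E11.5 the value was −1.07 for Snai2. The E12.5 lens difference from body minus the tooth germ difference from body also passed the test for 8 genes. Over all tested genes 20.4% were called lower in this comparison and 19.2% higher. The values were −4.67 for Prrx1, −3.92 for Twist2, −3.55 for Snai2, −3.36 for Twist1, −2.25 for Prrx2, 0.97 for Foxc1, 1.05 for Pdgfra and 1.49 for Alx1. The Alx1 value rests on levels near the no-target level in both tissues and was 0.31 (limma adjusted p = 0.193) with the mean of both probe sets, and the second Foxc1 probe set gave 0.24 (adjusted p = 0.562). The other Pdgfra probe sets gave 1.23 (adjusted p = 0.0534) and 1.845 (adjusted p = 0.00267).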

How the results depend on the processing

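Of 1197 alternative values for the 9 genes, 1161 kept their direction and their side of the threshold, 26 lost a call, 9 gained one and 1 reversed: with the mean of all probe sets, Prrx1 between the bodies was −0.15. With that mean, 1 gene (Pdgfra, 0.42) was called higher in E12.5 lens than in body. Fits on only the arrays compared called 9 genes higher and 47 lower from E10.5 to E11.5, with 0 of the 9 lower at an adjusted p under 0.05 by limma (Snai2, adjusted p = 0.122), and 76 higher and 63 lower from E11.5 to E12.5, with 3 of the 9 lower, against 203 and 365, and 402 and 459, over all 19 arrays. With the control set as a block, 568 genes were lower from E10.5 to E11.5. Within a control set a group of lens arrays has 1 or 2 arrays, the spread of a single one being taken from the other groups, so these counts say little on firmness. Within the high set, 1445 genes were higher in E12.5 lens than in body (2215 over all arrays), 382 higher and 1091 lower from E10.5 to E11.5, with 1 of the 9 higher (Twist1, 1.34), and 71 lower from E11.5 to E12.5. Within the low set, 1196 were higher in E10.5 lens than in body (1797 over all arrays), 51 higher and 71 lower from E10.5 to E11.5, with 0 of the 9 lower, and 0 of the 9 higher in E11.5 lens than in body. With the replicate block the Twist2 difference from E11.5 to E12.5 stayed at −0.86 with an adjusted p of 0.054, and it changed no other call of the 9. With 1 array left out at a time, counts from E10.5 to E11.5 ran from 71 to 392 higher and 136 to 408 lower, with 0 to 2 of the 9 higher; from E11.5 to E12.5 they ran from 233 to 567 higher and 209 to 537 lower, with 2 to 7 of the 9 lower; and 0 to 1 of the 9 was higher in E11.5 lens than in body. The causes were not tested, beyond the fewer arrays in the smaller fits. Alx1 in lens is limited by signal at the no-target level.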

Other observations

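Muscle genes were lower than in body for all 6 measured genes in lens at each stage and in tooth germ (limma). Over all tested genes 19.1%, 22.3% and 26.7% were called lower in the 3 lens stages and 25.3% in tooth germ. At the no-target level were 4, 3 and 3 of the 6 in the lens stages and 2 in tooth germ. With arrays under that level set to it, the median difference was −4.61, −4.54 and −4.54 in the 3 lens stages and −1.61 in tooth germ. Actc1, cardiac muscle actin, was at least 272-fold lower in E10.5 lens and at least 30.6-fold lower in tooth germ, and gave −7.74 and −7.70 in E11.5 and E12.5 lens. Cartilage genes were lower for 5, 3 and 5 of 5 tested in lens and for 3 of 5 in tooth germ, with Col2a1, the main cartilage collagen, at −1.97, −2.66, −3.90 and −0.86.

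Markers of surface epithelium went from mostly higher to mostly lower in lens relative to body: 5, 1 and 1 of 8 were called higher in the 3 stages and 3, 6 and 7 were called lower. Over all tested genes 13.5%, 14.7% and 16.6% were called higher in the 3 lens stages and 19.1%, 22.3% and 26.7% lower. Desmoplakin, Dsp, gave 1.66 and −2.03 at the first 2 stages and, with its E12.5 arrays under the no-target level set to it, −3.52 or lower at E12.5, and the epithelial adhesion gene Epcam gave 1.93, −1.08 and −2.84, while E-cadherin, Cdh1, stayed higher at 4.02, 3.36 and 2.98. Macrophage genes were higher for 4, 3 and 3 of 6 in lens, where 1, 0 and 0 were lower. In tooth germ none was higher and 3 were lower, where 16.6% of all tested genes were higher and 25.3% lower. Tyrobp, a signalling adaptor of myeloid cells, gave 1.36, 0.73 and 0.97 in the lens stages and −0.93 in tooth germ.

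The single genes named for these marker lists were chosen after their values were seen.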
